A study of Mus musculus with 9 samples.

Results

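The genes described here carry cargo between the membranes of the cell: Rab and Arf GTPases, the Tbc1d proteins that switch Rabs off, SNAREs, synaptotagmins, the exocyst, the coats COPI and COPII, Vps complexes and sorting nexins. Members were chosen by name alone from the union of the 3 deposited tables of called genes (Rab, Stx, Vamp, Syt, Arf or Sec with a digit, the Vps, Snx, Tbc1d and Exoc families, and Cop with a, b, e, g or z). The rule found 125 of the 8742 genes in the tables, 124 of them protein coding and 1 an antisense RNA, Rab10os. By role they were 29 Rab GTPases, 7 Rab partners, 21 Tbc1d proteins, 10 SNAREs, 4 synaptotagmins, 9 exocyst genes, 4 Arf GTPases, 9 COPII and 4 COPI genes, 8 Vps genes, 15 sorting nexins, 3 Sec14-like lipid transfer proteins and 2 genes of protein entry into the endoplasmic reticulum. Roles were given by name, so the Rab partners count Rab10os among them. All 9 libraries were of total RNA from mouse esophageal epithelial organoids, cultured epithelial bodies taken on day 7 after seeding, with no treatment. The WT group was wild type. By their labels, the PN group lacks Trp53 and Notch1, and the PCN group lacks Cdkn2a besides these. Each group has 3 libraries. How the genes were edited, how many clones were used, the strain and age of the animals, and whether a group's libraries come from separate cultures are not given in the labels. Every p-value therefore measures only the spread between these libraries.

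A table lists a gene when the authors had called it in that pair of groups, so each member was chosen by a call in at least 1 pair. What follows describes sizes and directions rather than testing anew whether the family changed. Of the 258 annotated protein-coding genes that the rule matches in GENCODE M21, 48.1% stood in the tables, beside 36.9% of all 21951 protein-coding genes. That share was 70% for Tbc1d genes (21 of 30), 49.2% for Rab GTPases (29 of 59), 40% for SNAREs (10 of 25) and 22.9% for Vps genes (8 of 35). These bases count annotated genes whether or not they were expressed in the organoids, so the shares do not compare change alone. Members without a row in a pair's table have no call there, and 94 of the 125 have counts in all 9 libraries.

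Rab GTPases are molecular switches that mark a membrane compartment and recruit the motors, tethers and fusion proteins that act there. Exchange factors turn them on, Tbc1d GTPase activating proteins turn them off, the exocyst tethers secretory vesicles to the plasma membrane, and SNAREs on vesicle and target drive the fusion. COPII and COPI coats shape the vesicles between endoplasmic reticulum and Golgi, while sorting nexins, retromer and other Vps complexes sort cargo in endosomes. In stratified epithelia such as the esophageal lining these routes deliver junction proteins, receptors and secreted products to the cell surface.

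The WT libraries held 14695420 to 15093994 counts, the PN libraries 16857744 to 18912526 and the PCN libraries 17422590 to 20198041. Of the genes named in the labels, Trp53 lay between 118 and 121 CPM (counts scaled to a common library total) in WT. In PN it lay between 2.27 and 3.24 CPM, and in PCN between 2.53 and 3.96. Notch1 lay between 213 and 277 CPM in WT, between 140.5 and 153.9 in PN and between 66.5 and 76.9 in PCN. Cdkn2a lay between 6.49 and 10.3 CPM in WT, between 21.5 and 22.7 in PN and between 62.4 and 70.2 in PCN. Its RNA was thus highest in the group labelled as its knockout. Whole-gene counts cannot check an edit, and PCN below always means the libraries labelled PCN. All 10 esophageal keratinocyte markers stood in the tables. The 8 of them with counts in all libraries summed to between 34640 and 36810 CPM in WT, between 10110 and 10410 in PN and between 12200 and 12650 in PCN. The suprabasal keratins made up most of the WT sum. Krt5, which has no WT value, and Sox2, which has no PN value, are outside the sum. Krt5 averaged 6629 CPM over the PN libraries and 6028 over the PCN libraries, above every marker inside it. Of the markers fitted against WT, 2 were higher and 5 lower in PN, and 3 were higher and 5 lower in PCN. Trp63 was among the higher ones, with log2 fold changes of 0.53 for PN and 0.42 for PCN. Krt13 had 15880.0 ± 646 CPM for WT, 2099 ± 79.6 for PN and 2791 ± 77 for PCN (mean ± SD, n = 3 libraries, as for every mean below). Krt4 had 11380.0 ± 410.3 CPM for WT, 2501 ± 75 for PN and 2206 ± 47 for PCN. The basal keratin Krt14 had 1959 ± 278 CPM for WT, 1965 ± 81 for PN and 2433 ± 84 for PCN. Krt15, also basal, rose and had 300.4 ± 32 CPM for WT, 731 ± 16 for PN and 1644 ± 38 for PCN. Of the columnar markers 5 of 8 were in the tables, and the 4 with counts everywhere summed to between 215.6 and 262 CPM in WT, between 58.5 and 59.3 in PN and between 31.2 and 34.9 in PCN. Krt8, outside that sum for lack of PN values, went the other way, with 1.22 ± 0.59 CPM for WT and 3.05 ± 0.82 for PCN. In PCN against WT 1 columnar marker was thus higher and 3 were lower. No fibroblast marker (0 of 7) and no muscle or glia marker (0 of 7) was in the tables, the leukocyte list (7 genes) was represented by Cd68 alone, the endothelial list (6 genes) by Esam alone, and the neuronal list by Snap25 and Tubb3. Cd68, a lysosomal protein of macrophages, lay between 94.0 and 119.5 CPM in WT, between 23.8 and 27.0 in PN and between 15.0 and 16.9 in PCN. Esam lay between 5.63 and 11.7 CPM in WT, between 4.65 and 5.99 in PN and between 4.56 and 6.03 in PCN. In bulk RNA, fewer cells of a type and less RNA per cell cannot be told apart, and the part of these marker shifts in the results below was not tested.

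In both edited groups more members were lower than higher. PN against WT listed 84 members, of which 80 had enough counts to be refitted with edgeR's quasi-likelihood test: 33 were higher and 47 lower at an adjusted p under 0.05, with a median log2 fold change of -0.35. PCN against WT listed 95 members and fitted 92, of which 31 were higher and 61 lower, with a median of -0.42. PCN against PN listed and fitted 51 members, of which 19 were higher and 32 lower, with a median of -0.22. The background for these counts is the whole table: the authors listed 38.1% of the genes they tested in PN against WT, 38.6% in PCN against WT and 24.5% in PCN against PN. Of all listed genes refitted, 48% were higher and 51.2% lower in PN against WT, 47.3% and 51.3% in PCN against WT, and 51% and 47.9% in PCN against PN. The members' share of lower calls was 58.8%, 66.3% and 62.7% in the same order of comparisons, and the median over all listed genes was -0.26, -0.28 and 0.16. No test of these shares was made, and PN against WT and PCN against WT share the 3 WT libraries. All fitted members passed the test, which the listing had already selected them for. Of these, 41 of 47 lower calls in PN and 45 of 61 in PCN against WT held without any 1 library. Of the higher calls 23 of 33 and 22 of 31 did. In PCN against PN 22 of 32 lower calls and 12 of 19 higher calls held.

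**Figure D1:**
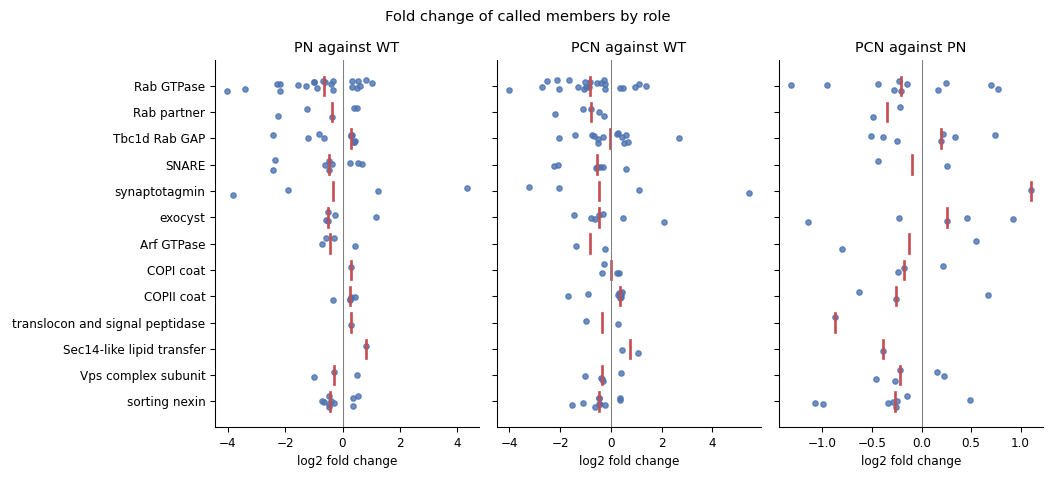
Log2 fold change of each called member (points) by role, in each of the 3 comparisons; red bars are the median of the role and the vertical line is no change. Rab GTPases spread from -4.04 to 1.04 in PN against WT with a median of -0.66, whereas the COPII genes lie close together with a median of 0.26. The antisense RNA Rab10os is drawn with the Rab partners by its name.

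The largest fitted fall of any member in both edited groups was in Rab17. Rab11a, Rab25 and Rab11fip1 were also lower in both, whereas Rab35, of fast endocytic recycling, was higher in both. Rab17, an epithelial Rab of recycling endosomes (chromosome 1, 90958133 to 90969661, GRCm38), stood at 24.1, 21.8 and 21.3 CPM in the WT libraries, 1.96, 0.942 and 1.16 in the PN libraries and 1.63, 0.976 and 1.45 in the PCN libraries. The WT libraries lay far above the other libraries, and PN and PCN overlapped. Its log2 fold change was -4.04 ± 0.20 (adjusted p = 6.4e-09) in PN and -4.03 ± 0.18 (adjusted p = 9.5e-10) in PCN, that is 16.4 and 16.3 times lower. Every adjusted p here is Benjamini-Hochberg adjusted and comes from edgeR, and the error of a log2 fold change is its standard error. Rab11a, the main Rab of the recycling endosome (chromosome 9, 64715299 to 64737758), stood at 322, 315 and 297 CPM in the WT libraries, 128, 120.0 and 133 in the PN libraries and 129, 126 and 123 in the PCN libraries. Here too no PN or PCN library reached the WT level, and the change was -1.28 ± 0.069 (adjusted p = 1.2e-08) in PN and -1.298 ± 0.072 (adjusted p = 5.9e-09) in PCN. Rab25, the epithelial relative of Rab11a (chromosome 3, 88542029 to 88548300), stood at 254, 256 and 281 CPM in the WT libraries, 142, 138 and 141 in the PN libraries and 128, 127 and 130.0 in the PCN libraries. The WT libraries were again apart, with changes of -0.898 ± 0.067 and -1.03 ± 0.073. Per length, Rab25 was the more abundant of the pair, at 158 ± 9.2 FPKM (fragments per kilobase of gene and library total) against 104 ± 4.3 for Rab11a in WT.

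The Rab11 effector Rab11fip1, also called Rab coupling protein (chromosome 8, 27138773 to 27174646), fell further than its GTPases. It stood at 133, 153 and 148 CPM in the WT libraries, 28.4, 30.6 and 31.2 in the PN libraries and 30.4, 30.8 and 32.5 in the PCN libraries. WT did not overlap the rest, and the gene changed by -2.26 ± 0.082 (adjusted p = 3.2e-10) in PN and -2.21 ± 0.084 (adjusted p = 1.4e-10) in PCN. Its relative Rab11fip5 fell less, with 176 ± 21 CPM for WT, 137 ± 5.1 for PN and 127 ± 2.1 for PCN and changes of -0.36 ± 0.086 and -0.47 ± 0.088. Rab11fip4 has counts in WT and PCN only, 3.91 ± 0.35 CPM for WT and 1.81 ± 0.33 for PCN, a change of -1.11 ± 0.26 (adjusted p = 0.0030). In PCN against PN, none of Rab11a, Rab25, Rab17 and Rab11fip1 was listed, and their log2 differences in a fit of all 9 libraries were -0.018 ± 0.062, -0.14 ± 0.059, 0.011 ± 0.29 and 0.046 ± 0.078. Antisense genes overlap Rab11fip1, and the sources used here do not say whether counting used strand.

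Rab27a, Rab27b and Rab3d, Rabs of regulated secretion, were lower in both edited groups, whereas the synaptotagmins Syt9 and Syt11, described below, were higher. Rab27a (chromosome 9, 73044854 to 73097629), which docks secretory granules and lysosome-related organelles at the plasma membrane, stood at 9.35, 11.5 and 10.4 CPM in the WT libraries, 1.01, 0.942 and 0.952 in the PN libraries and 1.83, 1.03 and 1.83 in the PCN libraries. Every WT library exceeded every PN and PCN library, with 10.6-fold lower RNA in PN (-3.41 ± 0.21, adjusted p = 4.8e-08) and 6.57-fold lower in PCN (-2.71 ± 0.23, adjusted p = 4.8e-07). Its paralogue Rab27b stood at 26.98, 31.4 and 33.3 CPM in the WT libraries, 6.05, 5.95 and 6.45 in the PN libraries and 6.83, 8.27 and 6.07 in the PCN libraries. It also showed no overlap with WT. It changed by -2.299 ± 0.13 (adjusted p = 1.4e-08) in PN and -2.11 ± 0.14 (adjusted p = 4.5e-08) in PCN. Rab3d, the Rab3 of exocrine granules (chromosome 9, 21907491 to 21918192), stood at 315, 313 and 281 CPM in the WT libraries, 108, 100.2 and 100.5 in the PN libraries and 161, 170.5 and 172 in the PCN libraries. PCN lay between PN and WT with no overlap among the 3 groups. The changes were -1.55 ± 0.073 (adjusted p = 3.5e-09), -0.85 ± 0.076 (adjusted p = 7.3e-07) and, in PCN against PN, 0.702 ± 0.051 (adjusted p = 4.2e-12).

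Proteins that link Rab27 to motors and membranes are outside the naming rule but were listed as part of the pathway. Melanophilin (Mlph), which couples Rab27a to myosin Va, had 8.997 ± 2.0 CPM for WT, 1.202 ± 0.17 for PN and 0.911 ± 0.40 for PCN. Mlph changed by -2.89 ± 0.25 in PN and -3.27 ± 0.30 in PCN. Sytl1, a synaptotagmin-like Rab27 effector, had 62.7 ± 2.5 CPM for WT, 16.2 ± 0.96 for PN and 25.9 ± 1.1 for PCN, with changes of -1.94 ± 0.089, -1.27 ± 0.085 and, in PCN against PN, 0.68 ± 0.091. Both genes passed the test as lower in each edited group. Other synaptotagmin-like genes of the list were higher. Sytl3 has values for WT and PCN, 0.471 ± 0.30 CPM for WT and 2.17 ± 1.1 for PCN, a rise of 2.18 ± 0.56 (adjusted p = 0.0076). Sytl4 has values for PN and PCN, 0.837 ± 0.25 CPM for PN and 2.32 ± 0.48 for PCN, a rise of 1.48 ± 0.31 (adjusted p = 0.00043) in PCN against PN.

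**Figure D2:**
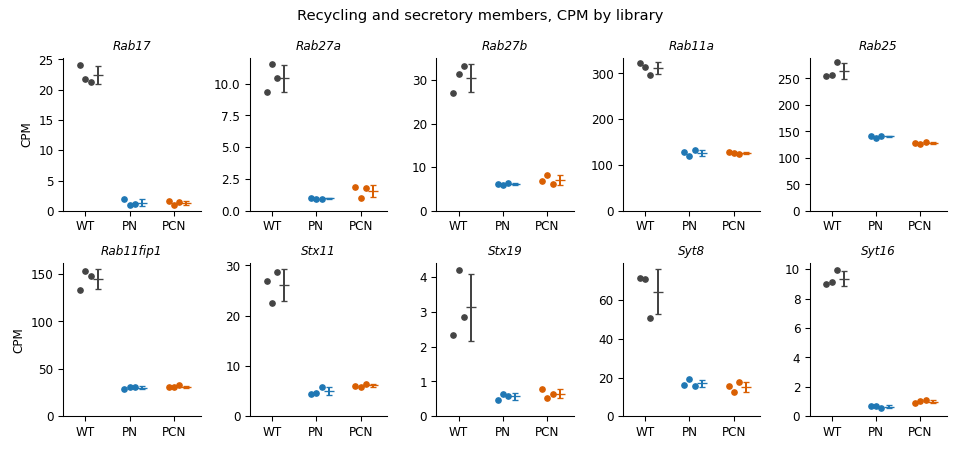
CPM of 10 recycling and secretory members in each library (points), with group mean and SD (bars, n = 3), on linear axes that start at 0. In every panel the 3 WT libraries lie above the 6 PN and PCN libraries, and the PN and PCN libraries lie close to each other, with means between 0.57 CPM (Stx19 in PN) and 140.4 CPM (Rab25 in PN).

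Promoter windows are shown for 4 members picked after their values were seen, to set side by side genes that moved in different ways; none is shown for the recycling genes. The windows are the 250 bases before an annotated RefSeq start (GRCm38.p6), 5′ to 3′ on the gene's strand. Capitals mark matches to the motifs named next. Rab27a (chr9:73044560-73044809, plus strand, upstream of 1 of its 2 starts) and Syt8 (chr7:142434600-142434849, plus strand, upstream of 1 of its 3 starts) fell in both edited groups, Exoc3l2 (chr7:19463037-19463286, plus strand) rose in both, and Rab10 (chr12:3309970-3310219, minus strand) fell most in PCN.
Rab27a: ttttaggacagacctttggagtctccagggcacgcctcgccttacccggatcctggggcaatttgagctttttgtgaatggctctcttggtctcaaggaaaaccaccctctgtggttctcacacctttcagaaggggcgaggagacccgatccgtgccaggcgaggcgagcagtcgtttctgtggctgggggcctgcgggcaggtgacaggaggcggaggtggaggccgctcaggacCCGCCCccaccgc
Syt8: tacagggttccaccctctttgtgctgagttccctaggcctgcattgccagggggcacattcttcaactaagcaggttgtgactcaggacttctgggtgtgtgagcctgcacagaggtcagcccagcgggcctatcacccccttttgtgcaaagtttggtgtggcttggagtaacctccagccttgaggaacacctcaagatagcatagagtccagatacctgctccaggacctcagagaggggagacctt
Exoc3l2: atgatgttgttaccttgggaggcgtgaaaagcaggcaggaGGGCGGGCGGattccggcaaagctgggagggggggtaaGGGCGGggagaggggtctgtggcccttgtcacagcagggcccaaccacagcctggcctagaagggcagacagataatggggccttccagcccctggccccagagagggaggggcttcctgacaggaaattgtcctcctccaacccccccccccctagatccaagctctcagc
Rab10: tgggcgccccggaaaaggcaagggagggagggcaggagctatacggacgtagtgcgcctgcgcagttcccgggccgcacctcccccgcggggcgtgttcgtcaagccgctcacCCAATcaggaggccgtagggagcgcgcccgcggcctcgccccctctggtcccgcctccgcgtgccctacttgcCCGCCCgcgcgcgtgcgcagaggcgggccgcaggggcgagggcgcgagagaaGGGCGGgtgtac
The motifs searched on both strands were the E-box CACGTG, the RBPJ core TGGGAA of Notch signalling, the grainyhead-like site AACCGGTT, the TATA box TATAAA, the GC box GGGCGG, the CCAAT box CCAAT and a p53 site of paired half-sites. The Rab27a window held 1 GC box, 13 bases before the start. Exoc3l2 held 3 GC boxes at 210, 206 and 172 bases, with the first pair overlapping, and Rab10 held 2 GC boxes at 64 and 12 bases and a CCAAT box at 137. None of the motifs was found in the Syt8 window. The RefSeq table matched 99 of the 125 members with 120 starts, and 64.2% of their windows held a GC box, beside 32.7% of the 32851 windows of all genes. The RBPJ core stood in 25% of member windows and 21.6% of all, the E-box in 10% and 6.02%, the CCAAT box in 31.7% and 33.8%, and the TATA box in 3.33% and 12.4%. Neither the p53 site nor the grainyhead-like site was in a member window, and 0.0639% and 0.116% of all windows held them. The windows of all genes include noncoding genes, and no window says anything about binding in these organoids.

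Among SNAREs and synaptotagmins the falls of Stx11, Stx19, Syt8 and Syt16 were the largest in both edited groups. Stx11, a syntaxin known from granule release by cytotoxic lymphocytes (chromosome 10, 12938209 to 12964298), stood at 26.98, 22.5 and 28.6 CPM in the WT libraries, 4.45, 4.71 and 5.82 in the PN libraries and 5.99, 5.91 and 6.44 in the PCN libraries. All 6 libraries of the edited groups were below WT (-2.37 ± 0.15, adjusted p = 5.1e-08 in PN and -2.08 ± 0.14, adjusted p = 3.4e-08 in PCN). The macrophage gene Cd68 moved the same way, and its part in the Stx11 level was not tested. Syt8, one of the synaptotagmin family of membrane-bound C2-domain proteins (chromosome 7, 142434850 to 142440396), stood at 71.4, 70.8 and 50.95 CPM in the WT libraries, 16.3, 19.1 and 15.8 in the PN libraries and 15.7, 12.6 and 17.8 in the PCN libraries. The lowest WT library still exceeded the highest of the others. It changed by -1.91 ± 0.14 (adjusted p = 2.6e-07) and -2.06 ± 0.16 (adjusted p = 1.1e-06). Syt16 (chromosome 12, 73997661 to 74273267) stood at 9.02, 9.12 and 9.94 CPM in the WT libraries, 0.712, 0.707 and 0.529 in the PN libraries and 0.891, 1.03 and 1.07 in the PCN libraries. Its RNA was 14.2-fold and 9.3-fold lower (-3.83 ± 0.23, adjusted p = 4.0e-08 and -3.22 ± 0.22, adjusted p = 5.2e-08). Stx19, an epithelial syntaxin that lies within Arl13b on the opposite strand, stood at 2.34, 4.22 and 2.85 CPM in the WT libraries, 0.475, 0.648 and 0.582 in the PN libraries and 0.792, 0.517 and 0.644 in the PCN libraries. The groups did not overlap WT, with changes of -2.44 ± 0.36 and -2.24 ± 0.35. Reads from Arl13b cannot be told apart from those of Stx19 if counting ignored strand, and an antisense gene overlaps Syt16.

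Endosomal SNAREs fell by less. Stx7, a syntaxin of late endosomes, had 160.5 ± 11 CPM for WT, 105 ± 2.9 for PN and 107 ± 2.6 for PCN. Stx7 changed by -0.595 ± 0.072 (adjusted p = 2.3e-05) in PN and -0.58 ± 0.076 (adjusted p = 3.2e-05) in PCN. Vamp3, the vesicle SNARE of recycling endosomes, had 179.7 ± 19.9 CPM for WT, 129 ± 8.8 for PN and 133 ± 2.7 for PCN. Vamp3 changed by -0.47 ± 0.086 (adjusted p = 0.00070) in PN and -0.43 ± 0.084 (adjusted p = 0.00083) in PCN. Vamp4, of the trans-Golgi network, had 58.9 ± 2.8 CPM for WT, 45.5 ± 1.8 for PN and 47.1 ± 3.7 for PCN. Stx8, a partner of Stx7, had 25.5 ± 5.4 CPM for WT, 18.1 ± 1.9 for PN and 17.3 ± 2.0 for PCN. Their changes were -0.36 ± 0.078 and -0.32 ± 0.087 for Vamp4 and -0.48 ± 0.15 and -0.55 ± 0.15 for Stx8. The PCN call of Vamp4 was lost without PCN 3 (-0.25, adjusted p = 0.065). The calls of Stx8 were lost without PN 1 (-0.44, adjusted p = 0.076) or PN 2 (-0.43, adjusted p = 0.088) in PN and without PCN 2 (-0.46, adjusted p = 0.058) in PCN. In contrast Stx2, a plasma membrane syntaxin, stood at 9.62, 7.89 and 9.54 CPM in the WT libraries, 14.2, 14.8 and 13.6 in the PN libraries and 12.2, 16.6 and 12.3 in the PCN libraries. It lay above WT in all PN and PCN libraries, with 0.67 ± 0.13 (adjusted p = 0.0012) in PN and 0.603 ± 0.16 (adjusted p = 0.0083) in PCN, a call lost without PCN 2 (0.44, adjusted p = 0.058). Vamp1, a synaptobrevin, stood at 12.2, 14.8 and 13.98 CPM in the WT libraries, 17.6, 21.5 and 19.4 in the PN libraries and 15.9, 10.8 and 16.2 in the PCN libraries. It rose in PN (0.52 ± 0.12, adjusted p = 0.0044) and was lower in PCN than in PN (-0.44 ± 0.13, adjusted p = 0.014), a call lost without PCN 2 (-0.28, adjusted p = 0.069) or PN 2 (-0.37, adjusted p = 0.069). Sec22b, which works between endoplasmic reticulum and Golgi, has counts in WT and PN, 56.6 ± 5.7 CPM for WT and 67.3 ± 2.6 for PN. Its call (0.26 ± 0.087, adjusted p = 0.029) was lost without any 1 of PN 1, PN 2, PN 3, WT 2 and WT 3, at an adjusted p of up to 0.14. Stx4a, a plasma membrane syntaxin, has counts in PN and PCN, 40.4 ± 2.4 CPM for PN and 48.2 ± 3.5 for PCN. The Stx4a call (0.25 ± 0.071, adjusted p = 0.0064) was lost without PCN 3 (0.19, adjusted p = 0.061). Of the SNAREs fitted, 3 were higher and 6 lower in PN against WT, 1 and 6 in PCN against WT, and 1 and 1 in PCN against PN. Among all listed genes refitted the shares were 48% and 51.2%, 47.3% and 51.3%, and 51% and 47.9% in that order.

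Of the 4 synaptotagmins, Syt9 and Syt11 were higher in both edited groups. Syt9, a calcium sensor of neuroendocrine exocytosis (chromosome 7, 107370728 to 107548656), had 2 counts in all WT libraries together, both in WT 2, against 55 in PN and 126 in PCN. That gives ratios of 23.3 (95% interval 6.16 to 197.5, counting error only) and 50.1 (13.6 to 418.5). In CPM it stood at 0, 0.136 and 0 CPM in the WT libraries, 1.602, 0.648 and 0.899 in the PN libraries and 1.53, 2.87 and 2.42 in the PCN libraries. PN and PCN overlapped, and the call in PCN against PN (1.105 ± 0.33, adjusted p = 0.011) was lost without PCN 2 (0.91, adjusted p = 0.077) or PN 2 (0.87, adjusted p = 0.095). Without WT 2 the fitted log2 changes against WT, which depend on the prior count, moved from 4.34 to 7.13 in PN and from 5.45 to 8.29 in PCN. Without PN 1 or PN 3 the gene had too few counts to be fitted in PN against WT. Syt11, a synaptotagmin that does not bind calcium, stood at 2.07, 1.97 and 0.861 CPM in the WT libraries, 3.796, 4.005 and 3.596 in the PN libraries and 3.22, 2.93 and 4.296 in the PCN libraries. It changed by 1.22 ± 0.31 (adjusted p = 0.0059) in PN and 1.09 ± 0.33 (adjusted p = 0.016) in PCN, the latter lost without PCN 3 (0.91, adjusted p = 0.089). The neuronal markers Snap25 and Tubb3 summed to between 3.11 and 4.28 CPM in WT, between 6.47 and 6.98 in PN and between 2.82 and 3.81 in PCN. Taken singly they differed. Snap25 was higher in both edited groups, with 0.316 ± 0.32 CPM for WT, 1.36 ± 0.20 for PN and 1.33 ± 0.28 for PCN. Tubb3 had 3.44 ± 0.62 CPM for WT, 5.36 ± 0.13 for PN and 2.03 ± 0.38 for PCN. The other 5 of 7 genes of that list, Chga and Syp among them, were not in the tables. Their part in the Syt9 level was not tested.

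Among the Rabs as a whole, 7 were higher and 15 lower in PN against WT, 5 and 17 in PCN against WT, and 4 and 7 in PCN against PN. Among all listed genes refitted the shares were 48% and 51.2%, 47.3% and 51.3%, and 51% and 47.9%. Rab10 and Rab15, lower in PCN than PN, lie on chromosome 12 before 95 Mb. The calls of Rab12 and Rab1a in PCN against PN were each lost without 1 or more libraries. Against WT so were those of Rab30 in PN and of Rab12, Rab21 and Rab31 in PCN. Among the Rabs of the tables with WT values, the order by FPKM in WT was led by Rab10 (159.5 ± 11), Rab25, Rab11a, Rab1a (97.8 ± 12) and Rab3d (72.2 ± 4.6); Rab10 and Rab25 did not differ beyond their SDs, nor did Rab11a and Rab1a. Rab5c has no WT value and could not be placed, and annotated Rabs outside the tables were not analysed here. Among the Rabs with values in all libraries, the highest in PN was Rab10 again (98.4 ± 1.5), followed by Rab25 (83.9 ± 1.1) and Rab15 (75.1 ± 3.4). In PCN it was Rab25 (76.7 ± 0.98), followed by Rab1a (65.99 ± 1.6) and Rab10 (50.9 ± 0.99). Rab5c, an early endosome Rab with values in PN and PCN only, stood at 89.99 ± 2.5 and 101 ± 4.7 FPKM, below Rab10 in PN and above all other Rabs with values in PCN. It was slightly higher in PCN (0.17 ± 0.048, adjusted p = 0.0080), a call lost without PCN 2 (0.14, adjusted p = 0.051).

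**Figure D3:**
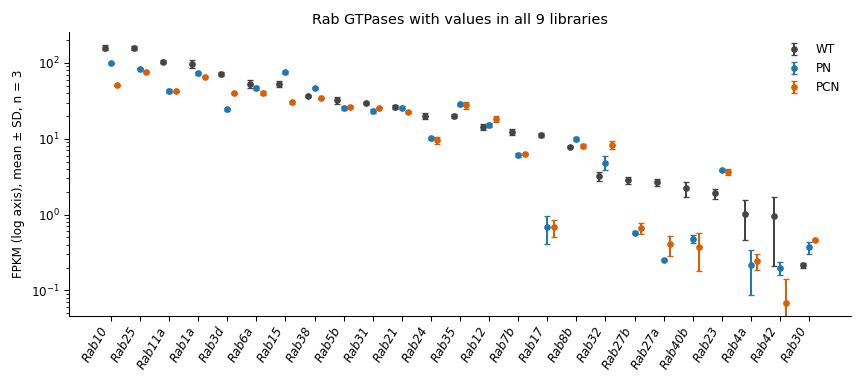
FPKM of the Rab GTPases with values in all 9 libraries (points are means, bars SD, n = 3) on a log axis, ordered by the WT mean. Rab36, listed at 0 in 6 libraries, cannot be drawn on a log axis, and the lower error bar of Rab42 in PCN runs below it. Rab17 and Rab27a, 16.4-fold and 10.6-fold lower in PN, stand far below their WT points in both edited groups.

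Several Rabs rose. Rab23, an inhibitor of hedgehog signalling (chromosome 1, 33719887 to 33742564), stood at 17.4, 13.1 and 16.6 CPM in the WT libraries, 31.4, 31.8 and 32.8 in the PN libraries and 27.97, 33.5 and 29.9 in the PCN libraries. All edited libraries were above WT, with changes of 1.04 ± 0.12 (adjusted p = 1.3e-05) in PN and 0.96 ± 0.13 (adjusted p = 3.8e-05) in PCN. Rab32, known from melanosomes and other lysosome-related organelles (chromosome 10, 10545002 to 10558265), stood at 6.28, 7.76 and 8.41 CPM in the WT libraries, 12.99, 8.66 and 12.4 in the PN libraries and 18.8, 21.8 and 17.7 in the PCN libraries. It rose in PCN over WT (1.38 ± 0.15, adjusted p = 4.8e-06) and over PN (0.77 ± 0.13, adjusted p = 2.9e-05). The rise in PN over WT (0.61 ± 0.18, adjusted p = 0.016) was lost without PN 1 (0.503, adjusted p = 0.086), PN 3 (0.54, adjusted p = 0.076) or WT 1 (0.5, adjusted p = 0.062). Its paralogue Rab38 stood at 58.3, 55.8 and 60.2 CPM in the WT libraries, 73.5, 74.6 and 70.96 in the PN libraries and 52.9, 54.4 and 54.6 in the PCN libraries. It was up in PN (0.34 ± 0.073, adjusted p = 0.0021) and lower in PCN than in PN (-0.44 ± 0.058, adjusted p = 6.4e-07), while PCN and WT were not listed as different (joint fit -0.103 ± 0.066). Rab35, of fast endocytic recycling, had 55.8 ± 3.6 CPM for WT, 79.96 ± 4.1 for PN and 78.2 ± 7.7 for PCN, a change of 0.53 ± 0.079 (adjusted p = 0.00014) in PN and 0.49 ± 0.091 (adjusted p = 0.00059) in PCN. Rab8b, of exocytosis and cilia, had 37.1 ± 0.57 CPM for WT, 46.5 ± 2.7 for PN and 38.5 ± 2.4 for PCN. Rab8b was higher in PN (0.33 ± 0.082, adjusted p = 0.0052) and lower in PCN than in PN (-0.27 ± 0.070, adjusted p = 0.0032). Its exchange factor Rabin8, encoded by Rab3ip, had 27.01 ± 0.96 CPM for WT, 37.7 ± 1.9 for PN and 26.9 ± 0.79 for PCN. Rab3ip changed by 0.49 ± 0.090 (adjusted p = 0.00068) in PN and -0.49 ± 0.075 (adjusted p = 6.0e-06) in PCN against PN. Rab5if, an interacting factor named after Rab5, had 69.1 ± 5.6 CPM for WT, 89.4 ± 1.7 for PN and 76.7 ± 0.32 for PCN, with changes of 0.38 ± 0.078 and -0.22 ± 0.054 in the same comparisons.

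Other Rabs were lower than in WT. Rab24, linked to autophagy, had 40.8 ± 3.7 CPM for WT, 20.5 ± 0.89 for PN and 19.3 ± 2.0 for PCN, with changes of -0.98 ± 0.10 and -1.07 ± 0.11. Rab7b, of the route from late endosome to Golgi, had 56.6 ± 4.7 CPM for WT, 28 ± 1.6 for PN and 28.9 ± 1.1 for PCN (-1.01 ± 0.091 and -0.96 ± 0.091). Rab1a, of transport from endoplasmic reticulum to Golgi, had 372 ± 45 CPM for WT, 278 ± 11 for PN and 251 ± 6.0 for PCN (-0.41 ± 0.085 and -0.56 ± 0.087). Rab6a, of Golgi retrograde transport, had 199 ± 26 CPM for WT, 175 ± 11 for PN and 149.8 ± 10.1 for PCN. Rab6a was lower in PCN than in WT (-0.402 ± 0.094, adjusted p = 0.0035) and than in PN (-0.23 ± 0.054, adjusted p = 0.0019). The latter call was lost in the fit of all 9 libraries (-0.23, adjusted p = 0.085). Rab5b, of early endosomes, had 135 ± 16 CPM for WT, 107 ± 6.1 for PN and 110.5 ± 2.4 for PCN. Its change was -0.32 ± 0.090 (adjusted p = 0.012) in PN, lost without PN 3 (-0.28, adjusted p = 0.067) or WT 2 (-0.27, adjusted p = 0.073). In PCN it was -0.28 ± 0.089 (adjusted p = 0.020), lost without any 1 of PCN 1, PCN 2, PCN 3, WT 1 and WT 2, at an adjusted p of up to 0.11. Rab40b, at low level, had 4.45 ± 0.99 CPM for WT, 0.965 ± 0.12 for PN and 0.749 ± 0.38 for PCN. Rab4a, of early recycling, had 1.76 ± 0.95 CPM for WT, 0.376 ± 0.23 for PN and 0.426 ± 0.10 for PCN. Both lay below WT without overlap. Rab36 had 17 counts in WT and 0 in PN and PCN, which puts it at least 6.68-fold lower in PN and at least 7.12-fold lower in PCN against a floor of 3 counts per group. Rab42 had 33 counts in WT and 3 in PCN, a ratio of 13.8 (95% interval 4.34 to 70.4), and Rab44 28 in WT and 2 in PN, a ratio of 16.5 (4.16 to 142.9), both for counting error only.

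Tbc1d proteins, which stimulate GTP hydrolysis by Rabs, moved in both directions. In PN against WT 6 were higher and 4 lower, in PCN against WT 7 and 7, and in PCN against PN 4 and 3. Among all listed genes refitted the higher and lower shares were 48% and 51.2%, 47.3% and 51.3%, and 51% and 47.9% in the same order. The PN calls of Tbc1d22b, Tbc1d25 and Tbc1d30 were each lost without 1 or more libraries. So were those of Tbc1d32 in PCN against WT and of Tbc1d5 and Tbc1d19 in PCN against PN. Tbc1d10b, of the EPI64 family of Rab GAPs, stood at 65.3, 62.3 and 53.3 CPM in the WT libraries, 83.7, 78.5 and 83.5 in the PN libraries and 86.5, 89.5 and 93.4 in the PCN libraries. It lay above WT in every edited library (0.45 ± 0.087, adjusted p = 0.00094 and 0.58 ± 0.088, adjusted p = 0.00012). Its relative Tbc1d10a had 45.3 ± 2.7 CPM for WT, 47.7 ± 3.6 for PN and 55.5 ± 2.5 for PCN. Its call in PCN against WT (0.296 ± 0.084, adjusted p = 0.011) was lost without PCN 2 (0.28, adjusted p = 0.056) or PCN 3 (0.28, adjusted p = 0.056), and that against PN (0.22 ± 0.067, adjusted p = 0.014) without PCN 2 (0.199, adjusted p = 0.058) or PN 2 (0.17, adjusted p = 0.14). Tbc1d1, a paralogue of Tbc1d4, had 103 ± 4.3 CPM for WT, 111 ± 3.3 for PN and 141 ± 8.3 for PCN, with 0.46 ± 0.076 (adjusted p = 0.00025) against WT and 0.34 ± 0.053 (adjusted p = 6.8e-06) against PN. Tbc1d20, a Rab1 GAP, had 82.9 ± 0.36 CPM for WT and 97.2 ± 3.6 for PCN. The rise of Tbc1d20, 0.23 ± 0.072 (adjusted p = 0.019), was lost without PCN 2 (0.21, adjusted p = 0.099), PCN 3 (0.23, adjusted p = 0.075) or WT 2 (0.23, adjusted p = 0.055). Tbc1d31, a protein of centriolar satellites, had 29.5 ± 1.3 CPM for WT, 36.3 ± 2.8 for PN and 41.6 ± 2.2 for PCN. Tbc1d31 rose by 0.501 ± 0.091 (adjusted p = 0.00052) in PCN. Its PN call (0.31 ± 0.094, adjusted p = 0.018) was lost without PN 1 (0.32, adjusted p = 0.057), PN 2 (0.25, adjusted p = 0.12) or WT 2 (0.28, adjusted p = 0.071).

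Among the Tbc1d genes that fell, Tbc1d14, which binds Rab11 and acts in autophagy, had 111 ± 8.6 CPM for WT, 62.4 ± 0.77 for PN and 65.4 ± 2.8 for PCN. Tbc1d14 changed by -0.82 ± 0.076 (adjusted p = 2.1e-06) in PN and -0.76 ± 0.081 (adjusted p = 4.5e-06) in PCN. Tbc1d16, a GAP for Rab4a, had 9.16 ± 0.68 CPM for WT, 3.91 ± 0.84 for PN and 3.45 ± 0.43 for PCN. Tbc1d16 changed by -1.21 ± 0.19 (adjusted p = 0.00020) in PN and -1.404 ± 0.18 (adjusted p = 3.0e-05) in PCN. Tbc1d22a had 39.3 ± 3.4 CPM for WT, 24.7 ± 1.1 for PN and 24.8 ± 1.7 for PCN. Tbc1d22a changed by -0.66 ± 0.098 (adjusted p = 0.00013) in PN and -0.66 ± 0.10 (adjusted p = 0.00015) in PCN. WT did not overlap the other groups in any of the 3. Tbc1d9, with 0, 0.612 and 0 CPM in the WT libraries and 1.34, 0.976 and 1.67 in the PCN libraries, was the largest Tbc1d rise in PCN (2.68 ± 0.76, adjusted p = 0.013), a call lost without PCN 3 (2.49, adjusted p = 0.053), and its fitted change moved to 7.53 without WT 2.

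Exocyst genes moved in both directions. Of the core subunits, Exoc4 (Sec8) stood at 78.4, 84.7 and 92.5 CPM in the WT libraries, 58.96, 55.7 and 57.6 in the PN libraries and 51.6, 59.8 and 52.7 in the PCN libraries. It was lower in all 6 edited libraries (-0.56 ± 0.080, adjusted p = 9.6e-05 and -0.64 ± 0.089, adjusted p = 5.7e-05). Exoc6b, a Sec15 form, had 98.4 ± 11 CPM for WT, 68.5 ± 4.7 for PN and 70.5 ± 5.1 for PCN. Exoc6b changed by -0.51 ± 0.089 (adjusted p = 0.00047) in PN and -0.48 ± 0.092 (adjusted p = 0.00080) in PCN. Exoc6, the other Sec15 form and a Rab11 effector (chromosome 19, 37550418 to 37683245), stood at 9.35, 12.6 and 14.97 CPM in the WT libraries, 15.6, 15.7 and 16.5 in the PN libraries and 7.23, 7.58 and 6.77 in the PCN libraries. PCN lay below both other groups, with changes of -0.77 ± 0.18 (adjusted p = 0.0030) against WT and -1.15 ± 0.12 (adjusted p = 4.4e-09) against PN, while the PN level was not listed as different from WT (joint fit 0.38 ± 0.15). Exoc8 (Exo84) had 31.6 ± 2.6 CPM for WT, 36.3 ± 2.4 for PN and 43.4 ± 1.7 for PCN. Exoc8 was higher in PCN than WT (0.46 ± 0.093, adjusted p = 0.0011) and than PN (0.26 ± 0.071, adjusted p = 0.0055), the latter call lost without PN 3 (0.204, adjusted p = 0.053). Exoc3 (Sec6) has values in PN and PCN, 71.5 ± 1.6 CPM for PN and 61.3 ± 3.9 for PCN, a change of -0.22 ± 0.060 (adjusted p = 0.0051). Outside the core, Exoc3l2, a relative of Exoc3 (chromosome 7, 19463331 to 19496762), stood at 2.204, 3.81 and 2.19 CPM in the WT libraries, 6.29, 7.13 and 4.92 in the PN libraries and 11.2, 11.1 and 12.2 in the PCN libraries. It rose from group to group without overlap (1.17 ± 0.26, adjusted p = 0.0025 in PN, 2.08 ± 0.21, adjusted p = 3.1e-06 in PCN and 0.92 ± 0.14, adjusted p = 6.3e-06 between them). Its other relative Exoc3l had 2.75 ± 0.28 CPM for WT and 0.983 ± 0.38 for PCN, a change of -1.46 ± 0.33 (adjusted p = 0.0026).

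Members grouped as COPII, the coat of vesicles leaving the endoplasmic reticulum, had more rises than falls against WT, but not in PCN against PN. Besides coat subunits the group holds the scaffold Sec16a and the Sec23-binding Sec23ip, both among the rises. Sar1b, a COPII partner outside the naming rule, was lower in both edited groups and is given below. COPII genes were 4 higher and 1 lower in PN against WT and 6 higher and 2 lower in PCN against WT, with medians of 0.26 and 0.34. In PCN against PN 1 was higher (Sec24c) and 2 were lower (Sec13 and Sec23a), with a median of -0.25. Among all listed genes refitted, 48% were higher and 51.2% lower in PN against WT. The shares were 47.3% and 51.3% in PCN against WT, and 51% and 47.9% in PCN against PN. Sec31a, of the outer COPII cage, stood at 126, 144 and 134 CPM in the WT libraries, 155, 162 and 162 in the PN libraries and 166, 176 and 176 in the PCN libraries. It lay above WT in every edited library (0.26 ± 0.069, adjusted p = 0.0089 and 0.36 ± 0.075, adjusted p = 0.0014). Sec23ip, a Sec23-binding protein, had 68.5 ± 2.4 CPM for WT, 92.4 ± 6.4 for PN and 89.03 ± 3.3 for PCN. Sec23ip changed by 0.44 ± 0.076 (adjusted p = 0.00042) in PN and 0.38 ± 0.075 (adjusted p = 0.00093) in PCN. Sec16a, the scaffold of exit sites, had 134 ± 9.9 CPM for WT, 158 ± 13 for PN and 174 ± 4.9 for PCN and rose in PCN (0.38 ± 0.076, adjusted p = 0.00099). Its PN call (0.25 ± 0.081, adjusted p = 0.028) was lost without PN 2 (0.22, adjusted p = 0.13), PN 3 (0.201, adjusted p = 0.16) or WT 1 (0.19, adjusted p = 0.10). The cargo adaptors Sec24a and Sec24b have values in WT and PCN. Sec24a had 34.5 ± 4.9 CPM for WT and 46.1 ± 3.0 for PCN, a rise of 0.42 ± 0.11 (adjusted p = 0.0057). Sec24b had 97.4 ± 6.3 CPM for WT and 119 ± 4.3 for PCN, a rise of 0.29 ± 0.076 (adjusted p = 0.0077). Sec13, shared by the cage and the nuclear pore, had 88.6 ± 2.4 CPM for WT, 109 ± 1.2 for PN and 91.4 ± 3.2 for PCN. Sec13 was higher in PN (0.31 ± 0.066, adjusted p = 0.0022) and lower in PCN than in PN (-0.25 ± 0.053, adjusted p = 0.00036). The lower member in PN against WT was Sec24c, described with chromosome 14 below. Those lower in PCN against WT were the inner coat gene Sec23a, described with chromosome 12 below, and Sec31b. Sec31b had 1.39 ± 0.42 CPM for WT and 0.414 ± 0.26 for PCN. Its call (-1.69 ± 0.48, adjusted p = 0.012) was lost without PCN 2 (-1.35, adjusted p = 0.055), PCN 3 (-1.61, adjusted p = 0.052) or WT 1 (-1.49, adjusted p = 0.054) and its change reached -2.29 without PCN 1.

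COPI genes moved little. Copg1, a gamma subunit, had 136 ± 11 CPM for WT, 166 ± 6.0 for PN and 168 ± 7.9 for PCN. Copg1 changed by 0.301 ± 0.074 (adjusted p = 0.0052) in PN and 0.32 ± 0.079 (adjusted p = 0.0052) in PCN. Its paralogue Copg2 had 139.7 ± 11 CPM for WT, 129 ± 1.6 for PN and 110.0 ± 4.1 for PCN. Copg2 was lower in PCN (-0.34 ± 0.078, adjusted p = 0.0030 against WT and -0.23 ± 0.051, adjusted p = 0.00057 against PN). Copa, the alpha subunit, had 233 ± 20.3 CPM for WT, 238 ± 6.6 for PN and 276 ± 9.5 for PCN. Copa was higher in PCN than PN (0.21 ± 0.046, adjusted p = 0.00049). Its call against WT (0.25 ± 0.079, adjusted p = 0.023) was lost without PCN 1 (0.24, adjusted p = 0.092), PCN 2 (0.23, adjusted p = 0.11), WT 1 (0.19, adjusted p = 0.083) or WT 2 (0.24, adjusted p = 0.075). Cope, the epsilon subunit, had 119 ± 6.2 CPM for WT, 112 ± 3.6 for PN and 99.5 ± 4.5 for PCN. Its PCN calls of -0.26 ± 0.076 against WT and -0.18 ± 0.054 against PN were each lost without 1 or more libraries, at an adjusted p of up to 0.095 and 0.094. Arf5, a Golgi GTPase, had 232 ± 12 CPM for WT, 187 ± 0.78 for PN and 198 ± 5.6 for PCN. Arf5 was lower in PN (-0.299 ± 0.065, adjusted p = 0.0024). Its PCN change (-0.23 ± 0.072, adjusted p = 0.022) was lost without PCN 1 (-0.21, adjusted p = 0.12), PCN 3 (-0.22, adjusted p = 0.084) or WT 2 (-0.19, adjusted p = 0.10).

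Of the genes of protein entry into the endoplasmic reticulum, Sec61a1, the pore of the translocon, had 161 ± 8.1 CPM for WT, 197 ± 3.6 for PN and 194 ± 6.6 for PCN. Sec61a1 changed by 0.302 ± 0.066 (adjusted p = 0.0023) in PN and 0.28 ± 0.072 (adjusted p = 0.0068) in PCN. Sec11c, a catalytic subunit of the signal peptidase, had 38.95 ± 1.6 CPM for WT, 35.6 ± 1.3 for PN and 19.5 ± 1.4 for PCN. Sec11c was lower in PCN than in WT (-0.995 ± 0.10, adjusted p = 2.3e-06) and than in PN (-0.87 ± 0.082, adjusted p = 8.1e-10), with PCN apart from both. Sec14l1, a Sec14-like lipid-binding protein, stood at 124, 117 and 108 CPM in the WT libraries, 207, 200.3 and 211 in the PN libraries and 152, 162 and 157 in the PCN libraries. It was highest in PN without overlap (0.83 ± 0.070, adjusted p = 8.6e-07 in PN, 0.44 ± 0.075, adjusted p = 0.00034 in PCN and -0.39 ± 0.047, adjusted p = 7.4e-08 between them). Sec14l2, of the same family, had 1.47 ± 0.64 CPM for WT and 3.12 ± 0.24 for PCN. The rise of Sec14l2, 1.08 ± 0.31 (adjusted p = 0.013), was lost without WT 2 (0.85, adjusted p = 0.070).

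Vps genes were few in the tables. Vps53, of the GARP complex that tethers endosome vesicles to the Golgi (chromosome 11, 76046226 to 76179647), stood at 104, 118 and 135 CPM in the WT libraries, 62.2, 61.01 and 56.8 in the PN libraries and 55.6, 62.9 and 58.8 in the PCN libraries. It lay below WT in all 6 edited libraries (-0.98 ± 0.095, adjusted p = 3.1e-06 and -1.01 ± 0.098, adjusted p = 1.8e-06); it overlaps Glod4 on the same strand. Vps54, of the same complex, had 77.5 ± 13 CPM for WT, 71.9 ± 2.4 for PN and 62.1 ± 1.8 for PCN. Its PCN call against WT (-0.31 ± 0.10, adjusted p = 0.029) was lost without PCN 1 (-0.295, adjusted p = 0.11), PCN 2 (-0.34, adjusted p = 0.066), PCN 3 (-0.31, adjusted p = 0.090), WT 2 (-0.34, adjusted p = 0.058) or WT 3 (-0.18, adjusted p = 0.071). Vps33a, of the HOPS and CORVET tethers, rose, with 37.6 ± 3.4 CPM for WT, 52.8 ± 2.6 for PN and 49.7 ± 1.7 for PCN (0.501 ± 0.090, adjusted p = 0.00057 and 0.41 ± 0.091, adjusted p = 0.0025). Of the ESCRT-I genes, Vps28 had 68.6 ± 4.2 CPM for WT, 55.6 ± 0.88 for PN and 65.1 ± 3.2 for PCN. Vps28 was lower in PN (-0.29 ± 0.076, adjusted p = 0.0079) and higher in PCN than PN (0.23 ± 0.061, adjusted p = 0.0049). Vps37a had 87.8 ± 13 CPM for WT and 68.2 ± 2.6 for PCN. The fall of Vps37a, -0.36 ± 0.097 (adjusted p = 0.0087), was lost without PCN 2 (-0.33, adjusted p = 0.053). The retromer gene Vps26b has values in PN and PCN, 110.1 ± 2.7 CPM for PN and 123 ± 3.7 for PCN. Its call (0.16 ± 0.051, adjusted p = 0.019) was lost without any 1 of 4 libraries, at an adjusted p of up to 0.11.

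Sorting nexins were mostly lower. Against WT, 3 were higher and 7 lower in PN, and 2 were higher and 8 lower in PCN. All listed genes refitted were 48% higher and 51.2% lower in PN, and 47.3% and 51.3% in PCN. In PCN against PN, 1 was higher and 7 lower, while of all listed genes refitted 51% were higher and 47.9% lower. Of these 7 nexins, Snx6 and Snx13 lie on chromosome 12 before 95 Mb. In that stretch 257 of 263 listed genes that are no members were also lower. The calls of Snx5, Snx11, Snx15 and Snx19 were each lost without 1 or more libraries, whereas that of Snx27 held. Against WT, Snx10 and Snx12 were lost likewise in both edited groups, Snx33 in PN and Snx5 in PCN. The paralogues Snx1 and Snx2, which pair with Snx5 or Snx6 in endosome sorting coats, differed. Snx2 stood at 119, 121 and 130.4 CPM in the WT libraries, 89.3, 87.3 and 90.05 in the PN libraries and 88.7, 90.7 and 85.8 in the PCN libraries. It lay below WT in both edited groups (-0.46 ± 0.069, adjusted p = 0.00013 and -0.48 ± 0.074, adjusted p = 0.00013). Snx1 stood at 62.2, 66.4 and 63.3 CPM in the WT libraries, 61.99, 56.01 and 56.3 in the PN libraries and 81.1, 83.3 and 80.5 in the PCN libraries. It was higher in PCN than in WT (0.36 ± 0.074, adjusted p = 0.0015) and than in PN (0.49 ± 0.059, adjusted p = 9.5e-08). Snx5 had 267 ± 23 CPM for WT, 252 ± 15 for PN and 227 ± 12 for PCN. Its small PCN changes of -0.23 ± 0.081 against WT and -0.15 ± 0.050 against PN were each lost without any 1 of 4 libraries, at an adjusted p of up to 0.16 and 0.26. Snx27, a PDZ-domain nexin that recycles receptors, had 122 ± 6.5 CPM for WT, 155 ± 5.8 for PN and 127 ± 0.61 for PCN. Snx27 was higher in PN (0.35 ± 0.069, adjusted p = 0.0011) and lower in PCN than in PN (-0.29 ± 0.048, adjusted p = 2.3e-05). Snx9, which acts with dynamin in endocytosis, had 126 ± 13 CPM for WT, 91.4 ± 3.5 for PN and 91.1 ± 2.9 for PCN. Snx9 changed by -0.45 ± 0.082 (adjusted p = 0.00058) in PN and -0.47 ± 0.084 (adjusted p = 0.00047) in PCN. Snx11 had 13.5 ± 1.4 CPM for WT, 19.7 ± 0.64 for PN and 15.6 ± 1.3 for PCN. Snx11 was higher in PN (0.56 ± 0.12, adjusted p = 0.0020) and lower in PCN than PN (-0.34 ± 0.098, adjusted p = 0.0096), the latter lost without PN 2 (-0.31, adjusted p = 0.054).

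Position marked a group of members that differed between the edited groups. All 8 members on chromosome 12 lie before 95 Mb. In PCN against WT all 8 were lower (median -1.23) and in PCN against PN all 6 listed were lower (median -0.97), whereas in PN against WT 1 was higher and 5 lower. The listed genes of that stretch that are no members were 265 of 270 lower in PCN against WT, 257 of 263 in PCN against PN and 91 of 147 in PN against WT. Rab10, of basolateral and insulin-responsive transport (chromosome 12, 3247428 to 3309969), stood at 549.7, 529 and 603 CPM in the WT libraries, 339.8, 348 and 349.7 in the PN libraries and 178, 182 and 176 in the PCN libraries. This is a step down in each edited group without overlap (-0.69 ± 0.069, adjusted p = 4.5e-06 in PN, -1.65 ± 0.077, adjusted p = 1.1e-09 in PCN and -0.95 ± 0.045, adjusted p = 2.4e-16 between them). Arf6, the Arf of plasma membrane and endosomes (chromosome 12, 69372150 to 69373783), stood at 301, 298 and 271 CPM in the WT libraries, 196, 189.8 and 191 in the PN libraries and 93.03, 111 and 128 in the PCN libraries. The levels again fell in steps (-0.58 ± 0.067, adjusted p = 1.5e-05, -1.39 ± 0.10, adjusted p = 3.3e-07 and -0.8 ± 0.10, adjusted p = 0.00066). Rab15, which slows endocytic recycling (chromosome 12, 76797960 to 76822908), stood at 265, 248 and 217 CPM in the WT libraries, 364, 333 and 342 in the PN libraries and 135, 145 and 136 in the PCN libraries. It was thus highest in PN and lowest in PCN, with changes of 0.52 ± 0.080 (adjusted p = 0.00017) in PN, -0.81 ± 0.084 (adjusted p = 3.4e-06) in PCN and -1.32 ± 0.048 (adjusted p = 7.5e-19) between them.

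Sec23a (chromosome 12, 58958383 to 59012017), Snx6 (chromosome 12, 54746349 to 54795703) and Snx13 (chromosome 12, 35047186 to 35147479) completed the chromosome 12 members listed in PCN against PN. Sec23a, the GTPase activator of the COPII inner coat, stood at 31.9, 32.9 and 39.95 CPM in the WT libraries, 28.1, 30.04 and 28.3 in the PN libraries and 19.3, 19.2 and 17.2 in the PCN libraries. The PCN libraries lay below the rest (-0.905 ± 0.12, adjusted p = 2.3e-05 against WT and -0.63 ± 0.087, adjusted p = 9.6e-07 against PN). Snx6 stood at 69.4, 69.9 and 99.8 CPM in the WT libraries, 75.9, 72.3 and 76.2 in the PN libraries and 32.8, 41.9 and 38.3 in the PCN libraries. It was also lowest in PCN, and changed by -1.08 ± 0.15 (adjusted p = 0.00025) and -0.99 ± 0.072 (adjusted p = 1.2e-11). Snx13, a nexin with a domain that regulates G proteins, stood at 64.9, 72.1 and 73.6 CPM in the WT libraries, 46.3, 50.6 and 54.7 in the PN libraries and 22.4, 26.6 and 23.1 in the PCN libraries. It fell in steps (-0.46 ± 0.086, -1.54 ± 0.096 and -1.07 ± 0.080). The antisense RNA Rab10os, which overlaps Rab10 on the other strand, had 11.7 ± 0.89 CPM for WT, 4.92 ± 0.36 for PN and 6.87 ± 1.1 for PCN. Syt16 and Rab10os, the members of that stretch not listed in PCN against PN, were lower in both edited groups against WT. Unlike the 6 listed members, both stood higher in every PCN library than in any PN library. For Rab10os the joint fit of PCN against PN gave 0.47 ± 0.16, and Syt16 was at low level in both groups. Without the chromosome 12 members the count in PCN against PN was 19 higher and 26 lower.

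On chromosome 14 the direction was opposite in PCN against PN, where all 4 members were higher (median 0.61). All 3 listed there in PN against WT were lower, and the 2 listed in PCN against WT were higher. Of the listed genes on chromosome 14 that are no members, 318 of 325 were higher in PCN against PN and 256 of 274 lower in PN against WT. In PCN against WT these non-members were divided, with 99 higher and 107 lower of 208 and a median of -0.26. Sec24c, a COPII cargo adaptor (chromosome 14, 20674308 to 20694852), stood at 167, 182 and 174 CPM in the WT libraries, 135, 141 and 133 in the PN libraries and 217, 224 and 211 in the PCN libraries. The 3 groups did not overlap (-0.34 ± 0.066, adjusted p = 0.00097 in PN, 0.32 ± 0.071, adjusted p = 0.0022 in PCN and 0.67 ± 0.048, adjusted p = 2.6e-12 between them). Arf4, a Golgi and cilia Arf (chromosome 14, 26638074 to 26665084), stood at 228, 206 and 169 CPM in the WT libraries, 123, 119 and 126 in the PN libraries and 178, 180.4 and 179 in the PCN libraries. It was lowest in PN (-0.702 ± 0.095, adjusted p = 6.5e-05, and 0.55 ± 0.047, adjusted p = 1.6e-10 in PCN against PN). Exoc5 (Sec10, chromosome 14, 49004090 to 49066653) had the same order at 70, 80.8 and 90.2 CPM in the WT libraries, 55.8, 53.4 and 59.1 in the PN libraries and 79.7, 78.9 and 72.1 in the PCN libraries. PN was again the lowest (-0.51 ± 0.094, adjusted p = 0.00075 against WT and 0.45 ± 0.061, adjusted p = 7.5e-07 in PCN against PN). Tbc1d4 (AS160, a Rab10 GAP, chromosome 14, 101442360 to 101609191) stood at 23.04, 26.3 and 21.7 CPM in the WT libraries, 21.5, 22.6 and 23.8 in the PN libraries and 38.2, 40.1 and 35.6 in the PCN libraries. It was highest in PCN (0.69 ± 0.10, adjusted p = 0.00012 against WT and 0.75 ± 0.079, adjusted p = 8.8e-09 against PN). Members on other chromosomes were 32 higher and 39 lower in PN against WT, 29 and 53 in PCN against WT, and 15 and 26 in PCN against PN. The part of position in these values was not tested.

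**Figure D4:**
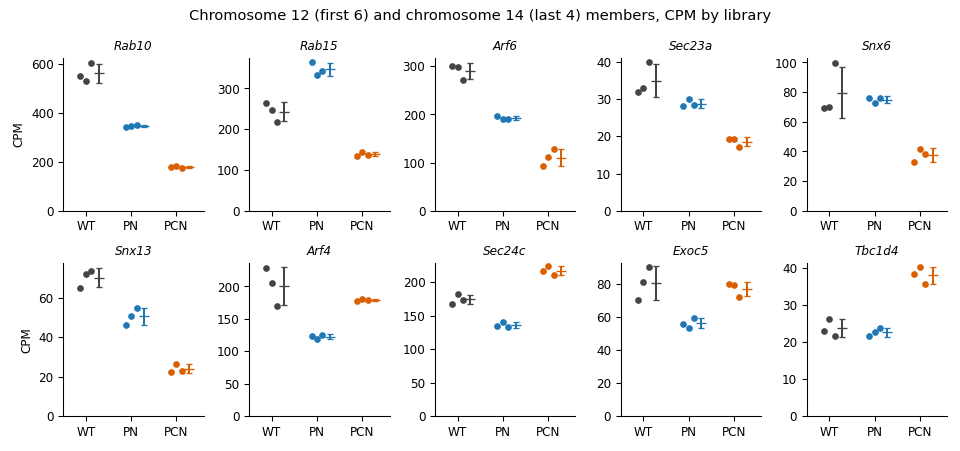
CPM of 6 chromosome 12 members (Rab10 to Snx13) and the 4 chromosome 14 members (Arf4 to Tbc1d4) in each library (points), with group mean and SD (bars, n = 3), on linear axes from 0. The PCN libraries are the lowest in all 6 chromosome 12 panels, and the PCN libraries lie above the PN libraries in all 4 chromosome 14 panels.

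**Figure D5:**
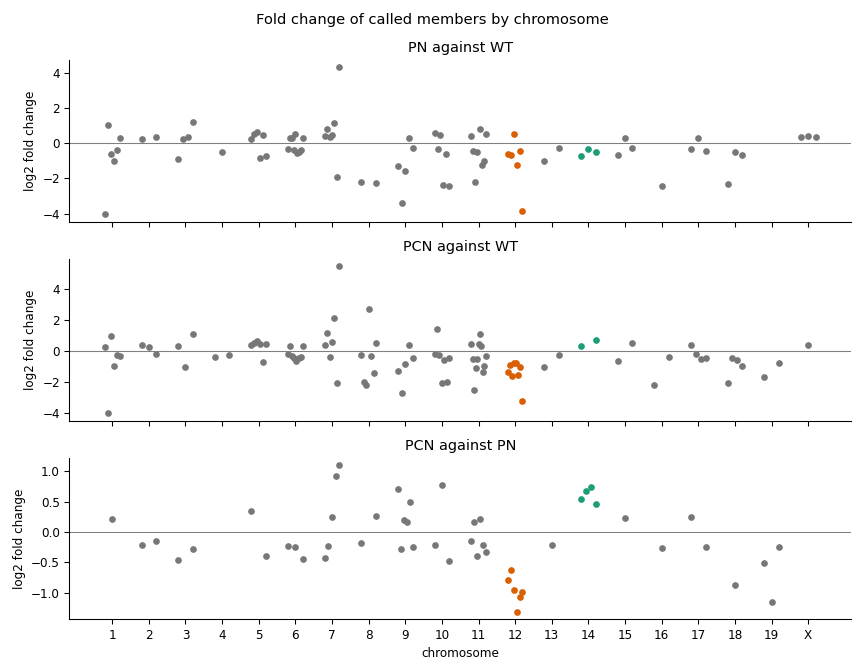
Log2 fold change of each called member by chromosome, for the 3 comparisons; orange points are chromosome 12, green points chromosome 14, and points are spread sideways within a chromosome for visibility. In PCN against PN the 6 orange points lie between -1.32 and -0.63 and the 4 green points between 0.45 and 0.75.

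Trafficking genes outside the naming rule were counted from 6 further lists, chosen with results of these data known. ESCRT genes without a Vps name, which bud vesicles into endosomes and cut membrane necks, were in the tables for 15 of 20. Of those fitted there were 1 higher and 11 lower in PN against WT, 0 and 13 in PCN against WT, and 2 higher of 2 in PCN against PN. Of these 2, Chmp7 lies on chromosome 14. Pdcd6ip (ALIX) had 439 ± 44 CPM for WT, 283 ± 12 for PN and 284 ± 12 for PCN. Pdcd6ip changed by -0.62 ± 0.079 (adjusted p = 3.4e-05) in PN and -0.62 ± 0.084 (adjusted p = 3.7e-05) in PCN. Chmp4c, of the ESCRT-III filament, had 51.2 ± 3.2 CPM for WT, 24.5 ± 1.1 for PN and 32.3 ± 0.45 for PCN. Chmp4c changed by -1.05 ± 0.089 (adjusted p = 8.6e-07) in PN and -0.66 ± 0.086 (adjusted p = 2.8e-05) in PCN. Rab regulators and effectors, 29 of 50 in the tables, were 7 higher and 14 lower in PN, 8 and 14 in PCN, and 8 and 4 in PCN against PN. Dennd6a, higher in PCN than PN, lies on chromosome 14. Rabggta, a subunit of the enzyme that attaches the lipid anchor to Rabs, lies on chromosome 14. It had 73.2 ± 1.6 CPM for WT, 30.3 ± 1.1 for PN and 46.3 ± 0.69 for PCN. Its changes were -1.26 ± 0.077, -0.65 ± 0.075 and, in PCN against PN, 0.61 ± 0.069.

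SNARE partners, 16 of 27, were 6 higher and 5 lower in PN, 4 and 7 in PCN, and 0 and 5 in PCN against PN. The SNARE regulator Scfd1 and the SNARE Vti1b lie on chromosome 12 before 95 Mb. Scfd1 had 32.5 ± 3.8 CPM for WT, 44.3 ± 1.3 for PN and 17.6 ± 1.4 for PCN, and PCN was lower than PN (-1.33 ± 0.080, adjusted p = 6.0e-14). Vti1b had 82.6 ± 10.1 CPM for WT, 75.9 ± 2.1 for PN and 36.7 ± 4.1 for PCN, also lower in PCN than PN (-1.05 ± 0.070, adjusted p = 1.2e-12). Clathrin and adaptor genes, 23 of 36, were 8 higher and 9 lower in PN, 3 and 8 in PCN, and 3 and 8 in PCN against PN. In the last comparison the higher Ap1g2 and Ap3m1 lie on chromosome 14 and the lower Ap4s1 on chromosome 12 before 95 Mb. The epithelial endocytic adaptor Epn3 had 148 ± 14 CPM for WT, 44.7 ± 3.8 for PN and 50.9 ± 1.8 for PCN. Epn3 changed by -1.72 ± 0.091 (adjusted p = 1.0e-08) in PN and -1.53 ± 0.086 (adjusted p = 6.4e-09) in PCN. The Golgi adaptor Gga2 had 42.4 ± 0.35 CPM for WT, 42.3 ± 1.4 for PN and 93.7 ± 5.1 for PCN. Gga2 rose in PCN over WT (1.15 ± 0.078, adjusted p = 5.2e-08) and over PN (1.15 ± 0.061, adjusted p = 4.1e-15). Golgi tethers and coat partners, 20 of 39, were 3 higher and 8 lower in PN, 2 and 12 in PCN, and 3 and 7 in PCN against PN. Cog5, Tmed10, Trappc6b and Trappc12, lower in PCN than in WT and PN, lie on chromosome 12 before 95 Mb. Cog3, higher in PCN than PN, lies on chromosome 14. The COPII partner Sar1b was lower in PN (-0.48 ± 0.078, adjusted p = 0.00028) and PCN (-0.59 ± 0.081, adjusted p = 4.2e-05). Arf regulators, 15 of 27, were 7 higher and 6 lower in PN, 5 and 6 in PCN, and 2 and 2 in PCN against PN. Asap2, lower in PCN than PN, lies on chromosome 12 before 95 Mb. Cyth3, an exchange factor for Arf6, had 60.4 ± 1.8 CPM for WT, 23.6 ± 2.1 for PN and 26.4 ± 1.3 for PCN. Cyth3 changed by -1.34 ± 0.090 (adjusted p = 9.3e-08) in PN and -1.19 ± 0.085 (adjusted p = 8.3e-08) in PCN. The genes given for each list were picked after their values were seen, and all shares are to be read against the percentages of all listed genes given above.

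Among the 125 members, 46 overlap another annotated gene, among them Rab10 with Rab10os, Rab15 with Fntb, Arf4 with Pde12, Exoc5 with Ap5m1, Rab6a with Mrpl48, Snx5 with Mgme1 and Vamp3 with Camta1. How reads in such stretches were assigned is not given in the sources used here, and the levels of these members are uncertain to that extent.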

How the data were processed

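RNA was measured by RNA-seq in 9 libraries of mouse esophageal organoids, 3 per group. Per the submitters' processing notes, CASAVA, DESeq and GRCm38 (mm10) were used; no source used here gives the aligner, the counter, its annotation or its strand setting. The authors deposited 3 tables, 1 for each pair of groups, and each holds only genes with an adjusted p-value under 0.05 by the authors. Per the file headers each table gives raw counts, size-factor normalized counts (a signal), FPKM, a log2 fold change, p-values and gene length for the 6 libraries of its pair. The members and the other lists were chosen with earlier results of these data known.

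Library totals were recovered from counts, FPKM and gene length, and CPM was computed from them; the authors' size factors were recovered from counts and normalized counts. The number of genes behind the deposited adjusted p-values was recovered as 17165 (PN with WT), 17300 (PCN with WT) and 14758 (PCN with PN). Raw counts of each table were fitted with edgeR 4.0.16 (quasi-likelihood, robust, filterByExpr, R 4.3.3), and p-values were Benjamini-Hochberg adjusted over those numbers at 0.05. Where a gene had counts in all 9 libraries but no row in a pair's table, its log2 difference came from 1 fit of all libraries and was never counted as a call. Each standard error is the fitted log2 change divided by the root of its F value. Scripts were tested on simulated data. Alternatives used DESeq2 1.42.0 and the settings in the closing section. The text names genes by a rule: per comparison the 8 largest rises and falls whose libraries do not overlap and whose higher group reaches 5 CPM, the most abundant members of each role, those called in opposite directions and sets of paralogues; members named beyond it were chosen after their values were seen. Intervals for low counts are exact at 95% and cover counting error only.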

Additional observations from a re-analysis of the deposited data

How the results depend on the processing

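Counts of called members stayed within 1.5 times the reported ones under all settings but 1, and no named member changed direction. The exception was the fit of all 9 libraries together, which gave 12 higher and 19 lower in PCN against PN. Of the 20 calls lost there, those of Exoc3, Rab5c, Snx15, Snx19, Stx4a, Tbc1d12, Tbc1d19, Tbc1d2b, Vps26b and Vps45 had no WT counts and could not enter that fit. Those of Cope, Rab12, Rab1a, Rab6a, Snx5, Syt9, Tbc1d10a, Tbc1d5, Vps54 and Vps8 entered and missed the threshold, and the cause was not tested. With the replicate number as a replicate block the counts were 33 higher and 47 lower in PN against WT, 29 and 55 in PCN against WT, and 18 and 30 in PCN against PN. Deviations of same-numbered libraries from their group means correlated at 0.0897 to 0.210 in PN and WT and at -0.261 to -0.099 in the other pairs. With 3 libraries per group these values cannot settle whether the numbers pair the libraries, and the labels do not say. TMM on the listed genes gave 33 and 43, 31 and 51, and 18 and 32, and DESeq2 gave 33 and 51 in PN against WT. Leaving out 1 library gave 26 to 32 higher and 44 to 48 lower in PN against WT, 26 to 31 and 48 to 60 in PCN against WT, and 14 to 18 and 25 to 31 in PCN against PN. Without chromosome 12 members, a choice made after seeing the data, PN against WT gave 32 and 42, and without chromosomes 12 and 14 it gave 32 and 39. Library depth limits genes of a few counts, such as Rab36, Rab42, Rab44 and Syt9.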
